A study of Mus musculus with 2 samples.

Results

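Footprints that lie outside every called peak of their own library made up 20573 of 258552 footprints (7.96%) on chromosomes 1 to 19 in replicate 1 and 34278 of 377178 (9.09%) in replicate 2, or 8.52% ± 0.80 (SD, n = 2). They were chosen by the deposited calls themselves, as the footprints that overlap no peak of either of the library's 2 peak lists by even 1 bp, so the share and the absence of overlap are descriptions of the selection. The libraries are DNase-seq of left cerebral cortex from male adult mice aged 18 to 20 months, both of the F1 hybrid strain B6CASTF1/J, with no treatment and no second group named in the labels. The labels list 2 biosamples under a single donor, which leaves the number of animals unknown, and the spread between the libraries may be technical. With 1 group of 2 libraries no difference could be tested, and all values below are descriptions. Each value is given for replicate 1 and then for replicate 2 unless stated otherwise. Replicate 2 had the longer lists throughout, with 178564 against 120015 peaks in the longer list and 111105 against 73221 in the shorter. These peak totals include chromosomes X and Y.

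DNase I cuts DNA where chromatin is open, and a bound protein shields the bases under it, which leaves a short run of few cuts inside a stretch of many. Such a run is called a footprint. Most footprints are expected where the cut rate is high, inside the called peaks of promoters and enhancers, where transcription factors displace nucleosomes. In the cerebral cortex, open chromatin comes from a mixture of excitatory and inhibitory neurons, astrocytes, oligodendrocytes and microglia, and a bulk library does not separate them.

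The tissue label was checked on the peaks. Of 16 genes known from cortical neurons and glia, 14 had a peak within 1 kb of a transcription start site (TSS) in each library, with median strongest signals of 1.89 and 1.38 on the deposited scale. Gfap, an astrocyte filament gene, had none in either library. Cx3cr1, a microglial gene, had none in replicate 1, and Aqp4, also an astrocyte gene, had none in replicate 2. The genes without such a peak were thus all glial. Of 10 genes of liver, heart, pancreas, T cells, skin, gut, muscle, kidney and lung, 0 had such a peak in either library.

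Examples of the outside footprints show what kinds of sequence they cover. Each line gives the plus strand of GRCm38.p6 (the coordinates of mm10), 5′ to 3′, with the footprint in capitals and 15 flanking bases on each side in lower case. The first set holds wide outside footprints that both libraries have outside their peaks.
Stag1 promoter, chr9:100643179-100643218: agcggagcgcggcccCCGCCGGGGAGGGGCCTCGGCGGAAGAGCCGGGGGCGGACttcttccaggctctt
Gpbp1 promoter, chr13:111490183-111490221: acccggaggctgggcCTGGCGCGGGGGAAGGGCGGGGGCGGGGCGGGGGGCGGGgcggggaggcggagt
Irf2bpl, intergenic, chr12:86894419-86894457: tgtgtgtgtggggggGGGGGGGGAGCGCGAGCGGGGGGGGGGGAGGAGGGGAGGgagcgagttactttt
Hexim2 promoter, chr11:103133128-103133168: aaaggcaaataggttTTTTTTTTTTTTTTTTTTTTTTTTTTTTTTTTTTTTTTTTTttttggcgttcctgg

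The second set holds shared outside footprints that cover the 3 motifs of highest density relative to the genome, those of EGR, NRF1 and SP/KLF factors.
EGR, Fxr1 promoter, chr3:34019898-34019917: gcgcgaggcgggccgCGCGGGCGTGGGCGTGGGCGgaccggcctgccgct
EGR, Pabpc1 promoter, chr15:36609017-36609035: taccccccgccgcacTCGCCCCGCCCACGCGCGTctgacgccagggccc
NRF1, Kcnn1, intergenic, chr8:70865520-70865538: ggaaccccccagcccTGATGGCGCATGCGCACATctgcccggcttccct
NRF1, Tnip1 promoter, chr11:54955862-54955878: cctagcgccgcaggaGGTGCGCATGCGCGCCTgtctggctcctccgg
SP/KLF, Tmem161b, intergenic, chr13:84347938-84347973: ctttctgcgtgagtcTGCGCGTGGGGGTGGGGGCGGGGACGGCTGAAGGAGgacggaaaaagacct

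The third set holds the widest outside footprints of each library, chosen after their values were seen; the first pair is from replicate 1 and the second from replicate 2.
tRNA gene n-TDgtc9, near Aurkb, chr11:69040934-69040987: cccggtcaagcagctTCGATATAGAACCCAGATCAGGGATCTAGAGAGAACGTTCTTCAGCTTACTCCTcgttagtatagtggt
tRNA gene n-TRcct1, near Fmc1, chr6:38533893-38533940: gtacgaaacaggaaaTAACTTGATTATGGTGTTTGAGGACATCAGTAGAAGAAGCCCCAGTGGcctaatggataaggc
Ppm1k promoter, chr6:57535495-57535558: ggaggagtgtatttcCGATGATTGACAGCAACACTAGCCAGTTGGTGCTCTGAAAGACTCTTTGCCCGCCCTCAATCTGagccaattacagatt
CTCF motif, Tarbp1, intergenic, chr8:126497640-126497694: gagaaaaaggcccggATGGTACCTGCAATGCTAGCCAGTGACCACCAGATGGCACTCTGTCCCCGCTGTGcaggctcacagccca

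The fourth set holds an outside footprint beside a very strong peak and those far from any peak.
Igf2bp3, intergenic, chr6:49236616-49236656: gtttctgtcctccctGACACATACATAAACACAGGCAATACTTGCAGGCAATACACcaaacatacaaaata
AW146154 promoter, chr7:41499939-41499960: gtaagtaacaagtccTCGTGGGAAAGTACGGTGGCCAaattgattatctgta
Zbtb3 promoter, chr19:8802728-8802736: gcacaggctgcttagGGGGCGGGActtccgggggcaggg
Slc39a10 promoter, chr1:46854204-46854212: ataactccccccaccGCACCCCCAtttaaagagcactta
Btn1a1 as nearest TSS, exon, chr13:23445376-23445382: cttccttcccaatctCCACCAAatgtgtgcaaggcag

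The outside footprints were the fringe of peaks. The median gap to the nearest peak edge was 26 bp and 36 bp (31 bp ± 7.07, SD, n = 2), the 90th percentile was 113 bp and 124 bp, and the largest gap in any member was 523 bp and 678 bp. No outside footprint of either library lay 1 kb or more from a peak. Gaps under 10 bp held 25.9% and 18.4% of them, and gaps of 200 bp or more held 1.75% and 2.51%. Between 2 peaks, with both within 200 bp, lay 10.4% and 9.71%. A further 52327 and 69644 footprints lay outside the shorter list but over a peak of the longer list, and 70 and 155 lay outside the longer list but over the shorter; none of these are members.

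Per listed base, the density of footprints fell gradually across the peak edge. Densities were counted as footprint centres per kb of listed bases, those where the authors' per-base false discovery rate (q-value) for the cut rate was at most 0.05. In replicate 1 the density was 6.53 per kb at 10 to 19 bp inside the edge, 4.78 at 0 to 9 bp inside, 4.39 in the first 10 bp outside and 3.30 in the next 10 bp. In replicate 2 the same bins held 5.01, 3.78, 3.27 and 2.66 per kb. The share of bases that were listed did drop at the edge, from 96.2% to 63.1% and from 95.6% to 64.2%. Over all bases the density therefore fell more at the edge, from 4.60 to 2.77 per kb and from 3.62 to 2.10 per kb. Farther out the density per listed base was not monotonic: it stood at 1.81 and 2.10 per kb at 31 to 40 bp outside, 2.38 and 2.51 at 51 to 60 bp, 1.07 and 1.17 at 71 to 80 bp, and 1.51 and 1.57 at 111 to 120 bp. Of the edges of the longer list, 68.7% and 69.5% fell on a multiple of 20 bp; the part of this grid in the profile was not tested.

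**Figure D1:**
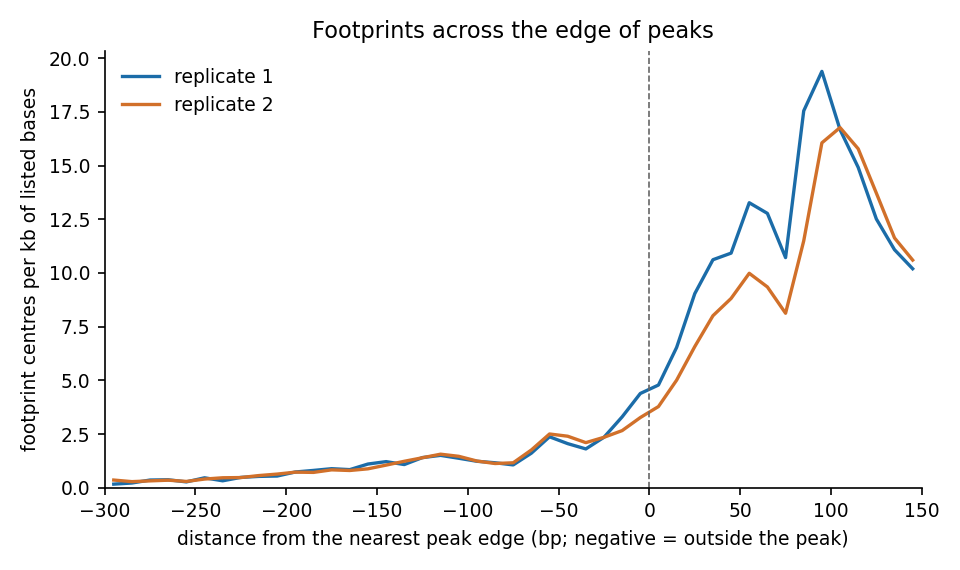
Footprint centres per kb of listed bases (vertical axis) against the distance from the nearest peak edge in bp, with negative values outside peaks; each line is 1 library in bins of 10 bp. Across the edge the densities per listed base are close, at 4.39 and 4.78 per kb in replicate 1 and 3.27 and 3.78 in replicate 2, and show small rises at 51 to 60 bp and 111 to 120 bp outside.

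Footprints just inside and just outside the selection were alike in most measures. A gap of 0 bases separated 677 and 671 members from their peak, and an overlap of exactly 1 base kept 647 and 732 footprints out. Members with a gap of 0 to 4 bases had a median width of 9 bp and 8 bp, and footprints that reached 1 to 4 bases into a peak had the same medians. Their median best −log10 q was 13.98 and 8.26 against 14.2 and 8.85. The other library had a peak at 61.1% and 28.5% of these members and at 82.8% and 48.3% of the footprints that reached into a peak.

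Nearly all outside footprints lay in bases that the authors listed. A listed base was under 99.1% of them in both libraries, and for 95.9% and 95.6% of those the run of listed bases around the footprint touched a peak. The median best q-value was 9.22e-12 in replicate 1 and 1.38e-08 in replicate 2. As −log10 q this was 11.04 and 7.86, beside 7.77 and 7.18 for footprints that overlap a peak. The q-values come from the same reads as the peaks, so they describe the selection and support nothing about it. A minority of 835 and 1486 members sat in listed runs that touched no peak, with median run lengths of 34 bp and 43 bp against 612 bp and 734 bp for the rest, and 191 and 301 had no listed base.

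Most listed sequence outside peaks held few footprints, and their density was highest where −log10 q was highest. Outside peaks lay 11.998 Mb and 21.5 Mb of listed bases, 35.8% and 36.9% of all listed bases. Members numbered 1.71 and 1.59 per kb of these, against 11.05 and 9.31 footprints overlapping a peak per kb of listed bases in peaks. Where −log10 q was under 2, the density outside peaks was 0.907 and 0.784 per kb. Where it was over 50 the density was 18.2 and 16.2 per kb, close to the 20.4 and 19.9 per kb at the same level inside peaks. That level covered only 55.5 kb and 107 kb outside peaks, with 4.28% and 4.66% of the centres there. At −log10 q of 20 to 50 the densities were 10.6 and 9.49 per kb outside and 19.5 and 17.7 per kb inside. At −log10 q of 5 to 10 the densities differed widely, at 1.65 and 1.98 per kb outside and 12.1 and 11.2 per kb inside. In these densities by −log10 q, footprints that straddle an edge are counted by their centre base.

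The strongest peaks were the ones most often flanked by outside footprints, and they also held the most footprints inside. Of the longer-list peaks, 13625 of 116625 (11.7%) and 21277 of 173466 (12.3%) were the nearest peak of at least 1 member. In the top decile of peaks by deposited signal this was 42.9% and 42.0% of peaks, in the next decile 17.2% and 15.01%, and in the lowest decile 4.92% and 3.70%. The top decile alone was nearest to 8690 and 13889 members, and it held 49850 and 75069 footprints inside, against 5171 and 4117 in the lowest. As a share of the footprints inside or nearest to a decile's peaks, members made up 14.8% and 15.6% in the top decile, 4.45% and 5.84% in the seventh and 11.5% and 14.8% in the lowest. The median signal of flanked peaks was 2.05 and 1.15, against 0.772 and 0.601 for all longer-list peaks and 0.917 and 0.754 for peaks with a footprint inside. The largest number of members at a single peak was 13 and 16. Flanked peaks that had no footprint inside numbered 1604 (11.8%) and 3287 (15.4%).

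**Figure D2:**
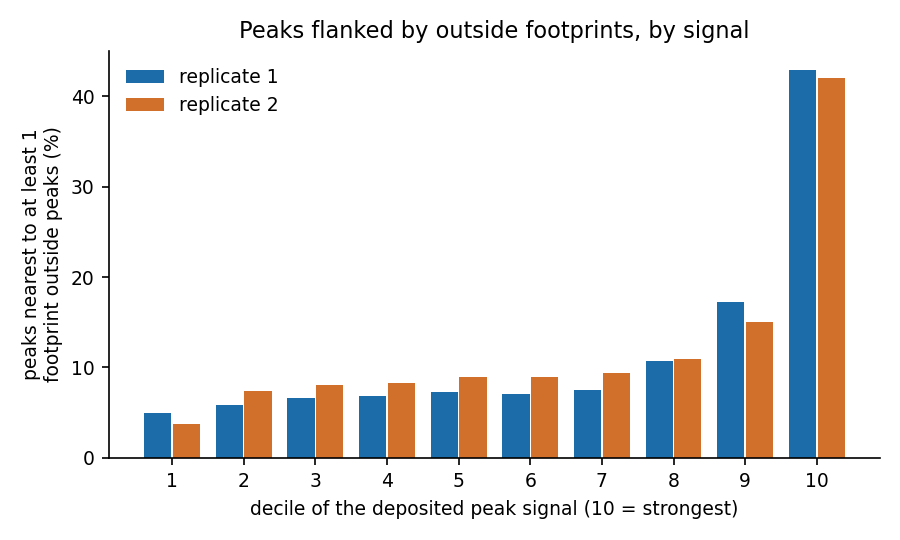
Percent of longer-list peaks that are the nearest peak of at least 1 outside footprint (vertical axis), by decile of the authors' peak signal within each library (horizontal axis, 10 is the strongest); bars are the 2 libraries. The strongest decile stands at 42.9% and 42.0%, and the other deciles lie between 3.70% and 17.2%.

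Among replicate 1 members, the one under the strongest replicate 2 peak of the shorter list lay near Igf2bp3, an RNA-binding protein gene. It was intergenic, 21679 bp upstream of the TSS, and 24 of its 41 bases were masked as repeats. Its 41 bp were centred outside a replicate 1 peak of signal 45.5 by a gap of 15 bp, with a best q-value of 2.35e-281. In replicate 2 the same bases lay partly under a peak of signal 35.5, with a footprint of 53 bp. Its sequence, shown above, holds none of the motifs searched. The next in replicate 1 was a 7-bp member in an exon near Limd1, beside a peak of 46.6, whose central 36 bases occur 3 times in the genome. In replicate 2, members of 15 bp and 20 bp near Cr2 lay beside a peak of 9.54, and both lay under a replicate 1 peak of 20.1 that spans chr1:195241541-195241800. A 22-bp member 8 bp from the TSS of Nup107, a nuclear pore gene, came next. The last of those named, a 10-bp member of replicate 1 in an exon near Cox14, lay 6 bp from a peak of 28.3 and under a replicate 2 peak of 18.1. These members were chosen for lying under a peak of the other library and outside those of their own.

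Outside footprints were narrower than those in peaks. The selection bears on this, because near an edge a wider footprint reaches a peak more readily and is then no member. Only partly in a peak were 7513 and 7523 footprints, all counted with the peak footprints. How much of the width difference comes from this was not tested. The median width was 9 bp and 8 bp, against 10 bp and 9 bp for footprints that overlap a peak. The shortest class, 7 bp, held 36.6% and 38.3% of members and 25.8% and 28.99% of the peak footprints. Widths of at least 20 bp made up 6.23% and 5.03% of members (5.63% ± 0.84) and 18.8% and 12.8% of peak footprints (15.8% ± 4.25). The widest members had 54 bp and 64 bp. At 30 bp or more there were 187 and 265 members.

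The widest members of replicate 1 lay at the start of tRNA genes, which RNA polymerase III transcribes with the factors TFIIIB and TFIIIC bound upstream of and within the gene. The 54-bp member near Aurkb, a mitotic kinase gene, reached into n-TDgtc9, a tRNA gene for aspartate, with its centre 23 bp upstream of the gene's 5′ end. The 48-bp member near Fmc1 was centred 14 bp upstream of the 5′ end of n-TRcct1, a tRNA gene for arginine. Replicate 2 had footprints of 56 bp and 60 bp over these positions, under peaks of 5.84 and 9.21. The position prompted a count, made after seeing it, over the 386 tRNA genes that RefSeq annotates on chromosomes 1 to 19. Within 100 bp of such a gene lay 186 members (0.904%) and 105 members (0.306%), at 117 and 71 genes. The share of peak footprints there was 0.302% and 0.241%. Among members of at least 30 bp the share was 5.35% (10 of 187) and 4.91% (13 of 265), and among peak footprints of that width 2.02% and 1.66%. Of the members near tRNA genes, 34 in each library overlapped a member of the other. The tRNA difference over all widths was thus larger in replicate 1 than in replicate 2, while the shares of wide members were similar in both. Some tRNA genes have near-identical copies, where reads may not be placed uniquely.

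The widest member of replicate 2 was a 64-bp stretch 101 bp upstream of the TSS of Ppm1k, a mitochondrial phosphatase gene. It lay 2 bp from a peak of 9.38, and replicate 1 had a 34-bp footprint there under a peak of 6.86. The next, 55 bp near Tarbp1, held a CTCF site and lay 6 bp from a peak of 4.96, with a 53-bp footprint under a replicate 1 peak of 5.85.

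Promoters held a larger part of the outside footprints than of the others. Within 1 kb of a protein-coding TSS were 49.7% and 42.0% of members (45.9% ± 5.42), against 29.5% and 22.4% of peak footprints (25.95% ± 5.08) and 2.13% of all bases. This direction depends on the peak lists: with only the shorter list, 22.3% of the footprints outside peaks lay in promoters (mean of the libraries), below the 27.6% of all footprints. The median distance to such a TSS was 1060 bp and 4268 bp, against 12805 bp and 21248 bp for peak footprints and 62632 bp for all bases. Of the other members, 24.7% and 30.5% lay in introns, 20.9% and 22.9% in intergenic sequence and 4.75% and 4.58% in exons, where 36.4% and 41.8%, 28.4% and 30.8%, and 5.71% and 5.10% of peak footprints lay. The promoter share rose with the gap, from 42.0% and 35.7% for gaps under 10 bp to 73.5% and 70.3% for gaps of 200 bp or more. The nearest peaks of promoter members were strong, with a median signal of 4.84 and 3.73 against 1.05 and 0.814 for members farther from a TSS.

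Around the TSS, outside footprints were less concentrated just upstream than peak footprints, and a smaller share of them lay beyond 500 bp. Of the footprints within 1 kb, 10.8% and 12.8% of members and 15.3% and 16.7% of peak footprints lay beyond 500 bp. The 100 bp just upstream of the TSS, where peak footprints were densest, held 15.4% and 14.2% of the members within 1 kb of a TSS and 30.3% and 28.1% of the peak footprints there. Members were commonest from the TSS to 99 bp downstream, with 21.9% and 20.5%, against 18.7% and 17.7% of peak footprints. At 101 to 200 bp upstream the libraries differed, with 16.0% of members against 13.02% of peak footprints in replicate 1 and 12.4% against 14.3% in replicate 2. At 201 to 300 bp upstream lay 9.76% and 10.2% of members and 4.60% and 5.45% of peak footprints, and from 100 bp to under 200 bp downstream 8.66% and 10.1% against 4.41% and 4.66%. The median distance from the TSS within this window was 147 bp and 165 bp for members and 104 bp and 116 bp for peak footprints.

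**Figure D3:**
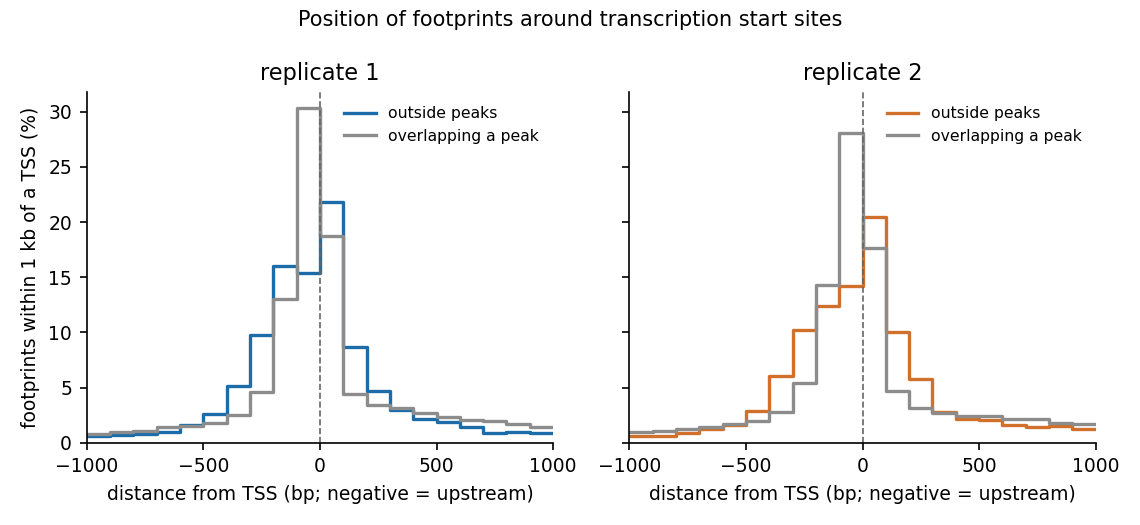
Percent of the footprints within 1 kb of a protein-coding TSS (vertical axis) in bins of 100 bp by distance from that TSS (negative is upstream); the coloured line is the outside footprints and the grey line the footprints that overlap a peak, 1 panel per library. Grey peaks just upstream of the TSS at 30.3% and 28.1%, where the outside footprints stand at 15.4% and 14.2%.

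The members farthest from peaks were mostly in promoters. Among those that both libraries share by at least 50% of each footprint, the farthest by the smaller of the 2 libraries' gaps was a 22-bp footprint 60 bp upstream of AW146154, with gaps of 398 bp and 420 bp to peaks on its 2 sides and a best q-value of 1.10e-21. An 11-bp footprint with an SP/KLF site 539 bp upstream of Mast3, a kinase gene, had a gap of 370 bp and a q-value of only 0.0128. A 9-bp footprint 177 bp downstream of the TSS of Zbtb3, a zinc finger gene, had a gap of 287 bp and a q-value of 5.02e-12. In replicate 1 alone the largest gap, 523 bp, belonged to a 9-bp footprint 162 bp upstream of Slc39a10, a zinc transporter gene, over which replicate 2 also had a footprint, of 18 bp. The next, at 487 bp, lay 307 bp downstream of the TSS of Gtdc1, where replicate 2 had a peak of 1.21 and no footprint. In replicate 2 the largest gap, 678 bp, was that of a 7-bp footprint in an exon 20496 bp from the TSS of Btn1a1 and 759 bp from the tRNA gene n-TVcac9, with a q-value of 0.00941. Replicate 1 had no peak or footprint there. These farthest members of single libraries were chosen after their values were seen.

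Outside footprints held more repeat sequence than peak footprints and less than the genome. Soft-masked bases made up 11.93% and 11.98% of their bases, against 8.91% and 8.87% for peak footprints and 33.5% for chromosomes 1 to 19. Of members with a gap under 10 bp, 18.6% and 16.2% had a masked base; the share was lowest at 50 to 99 bp, at 9.75% and 11.7%, and stood at 11.98% and 12.99% at 200 bp or more. A run of at least 7 equal bases, or of at least 5 equal pairs, lay in or within 10 bp of 3.77% and 3.87% of members and 1.82% and 1.86% of peak footprints. The central 36 bases occurred more than once in the genome for 1.70% and 1.62% of members and 1.09% and 1.03% of peak footprints. The footprint at Hexim2, a gene for an inhibitor of transcription elongation, is an extreme case of such sequence. It covers 41 T bases with a gap of 7 bp to a peak of 11.5, its central 36 bases occur 37215 times, and replicate 2 called 44 bp there. How reads were placed on such bases was not tested. The 39-bp footprint near Irf2bpl, a transcription regulator gene, is also fully masked, but its 36 bases occur once.

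Base composition was high in G and C, again with both peak lists counted. The median GC content of the 200 bp around a member was 56.0% and 53.5%, against 53.5% and 50.5% around peak footprints and 41.9% over all bases. The median number of CpG in that window was 8 and 6, against 5 and 4. Near a TSS the difference was small and in replicate 1 in the other direction, with 63.5% and 63.0% GC for members and 64.5% and 63.0% for peak footprints.

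Motif densities in outside footprints and in peak footprints lay farthest apart, among the 20 motifs with at least 10 sites in members of each library, a limit set after the counts were seen, for CTCF, the zinc finger protein that anchors chromatin loops. Sites of 31 motifs were counted on both strands where the site's centre fell in a footprint, as sites per kb of footprint sequence; a match is a match of letters and not a binding site. Members held 17 and 35 CTCF sites, or 0.0797 and 0.102 per kb, against 1.41 and 0.990 per kb in peak footprints and 0.00264 per kb over chromosomes 1 to 19. The flanks of the members, which are defined below and may reach into peaks, held 0.173 and 0.0682 CTCF sites per kb. Members were thus below their flanks in replicate 1 and above them in replicate 2. The libraries give no common direction against the flanks. The ratio of members to peak footprints was 0.0565 and 0.103 (0.080 ± 0.033). Members farther than 1 kb from a TSS had 0.105 and 0.148 per kb and peak footprints there 1.92 and 1.26. Members within 1 kb had 0.0552 and 0.0457 per kb and peak footprints there 0.203 and 0.169. At widths of 30 bp or more a CTCF site lay in 1.07% (2 of 187) and 3.02% (8 of 265) of members and in 16.4% and 13.3% of peak footprints.

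Several other motifs were also less dense outside peaks. The neuronal bHLH E-box (CAGATG), bound by NEUROD factors of excitatory neurons, had 1.15 and 1.57 sites per kb in members and 2.06 and 2.62 in peak footprints, a ratio of 0.579 ± 0.028. AP-1 (TGANTCA), the FOS/JUN motif of activity-dependent enhancers, stood at a ratio of 0.575 ± 0.094, and its density differed between libraries, with 0.389 and 0.695 sites per kb in members. The NFI short motif (TTGGCA) had a ratio of 0.692 ± 0.072, RFX (GTTGCCATG) of 0.671 ± 0.061 and the cAMP response element (TGACGTCA) of 0.631 ± 0.004. Farther than 1 kb from a TSS, AP-1 stood at 0.736 and 1.16 sites per kb in members and 0.817 and 1.76 in peak footprints, and the neuronal E-box at 1.98 and 2.52 against 2.73 and 3.32. The NFI short motif stood there at 1.33 and 1.59 per kb in members and 1.73 and 1.74 in peak footprints. RFX was lower in members there, at 0.162 and 0.169 per kb against 0.222 and 0.281. Within 1 kb of a TSS its densities were close, at 0.110 and 0.131 per kb in members and 0.116 and 0.122 in peak footprints. The cAMP response element was mostly a promoter motif, with 0.212 and 0.176 per kb in members and 0.511 and 0.513 in peak footprints within 1 kb of a TSS. Each of the densities over all locations was above that of the flanks, the bases 50 to 150 bp from each member, which may reach into peaks.

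A further set of motifs was denser outside peaks in both libraries over all locations. EGR (GCGTGGGCG), the site of the activity-induced zinc finger factors EGR1 to EGR4, had 37 and 51 sites, 0.173 and 0.149 per kb, against 0.112 and 0.0857 in peak footprints, a ratio of 1.64 ± 0.14. SP/KLF (GGGGCGGGG) had 327 and 493 sites, 1.53 and 1.44 per kb against 1.07 and 0.805, a ratio of 1.61 ± 0.25. YY1 (AAGATGGCG) stood at ratios of 1.05 and 1.54. Split by place, it stood at 0.212 and 0.268 per kb in members within 1 kb of a TSS, against 0.241 and 0.195 in peak footprints. Farther away it was less dense in members, at 0.0287 and 0.0106 per kb (3 and 2 sites) against 0.0629 and 0.0437. The AT-rich motifs FOX (TGTTTAC), homeobox (TAATTA) and AGATAA, the motif of GATA factors, stood at 2.86 and 1.14, 1.69 and 1.05, and 1.45 and 1.10, and IRF at 1.42 and 1.496; FOX rested on 18 and 21 sites. The densities of these 4 in members were all below those of the genome, at 0.463, 0.298, 0.282 and 0.603 times it as means of the libraries. NRF1, a regulator of nuclear genes for mitochondria, had 22 and 39 sites and a ratio of 0.825 in replicate 1 and 1.23 in replicate 2. Within 1 kb of a TSS SP/KLF stood at 2.57 and 2.76 sites per kb in members and 3.01 and 2.68 in peak footprints, lower in replicate 1 and slightly higher in replicate 2. EGR there stood at 0.248 and 0.222 per kb against 0.204 and 0.185, from 27 and 34 sites. NRF1 there was lower in members, with 0.147 and 0.176 per kb against 0.325 and 0.290. ETS (CCGGAAGT), another promoter motif, was lower too, with 0.230 and 0.313 against 0.532 and 0.591 per kb. Farther than 1 kb from a TSS SP/KLF was denser in members, at 0.4588 and 0.3699 per kb against 0.2502 and 0.182 in peak footprints. EGR was denser in members at that distance too, with 0.0956 and 0.0898 per kb against 0.0740 and 0.0527, from 10 and 17 sites. So were NRF1, from 6 and 12 sites, and ETS, from only 4 and 7 sites. Over all 31 motifs, 20 were denser in members than in the genome in both libraries, 18 denser than in the flanks and 14 less dense than in peak footprints.

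**Figure D4:**
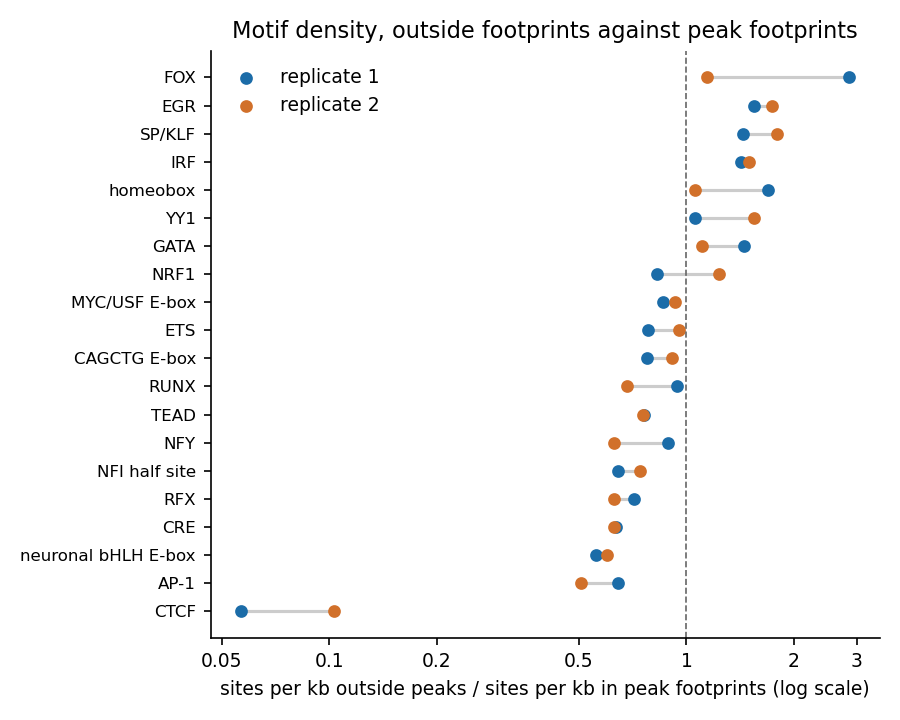
Ratio of motif sites per kb in outside footprints to sites per kb in footprints that overlap a peak (horizontal axis, log scale), for the 20 motifs with at least 10 sites in members of each library; points are the 2 libraries. CTCF stands far to the left at 0.0565 and 0.103, while FOX, EGR, SP/KLF, IRF, homeobox, YY1 and GATA lie above 1 in both libraries.

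The named EGR members were a 20-bp footprint 35 bp upstream of Fxr1, an RNA-binding protein gene, and a 19-bp footprint 53 bp upstream of Pabpc1, the poly(A)-binding protein gene. They lay 63 bp and 45 bp from peaks of 3.44 and 7.09, and replicate 2 had footprints of 19 bp and 20 bp over them. The NRF1 members lay 2271 bp upstream of Kcnn1, a calcium-activated potassium channel gene, at 122 bp from a peak, and 252 bp downstream of the TSS of Tnip1, an inhibitor of NF-κB signalling, at 162 bp. The SP/KLF members lay 91 bp upstream of Gpbp1, named for binding GC-rich promoters, and 125630 bp from Tmem161b. The 40-bp footprint 249 bp upstream of Stag1, a cohesin subunit gene, was 85.0% GC and held none of the motifs. It lay 42 bp from the nearest peak in replicate 1, while the 29-bp footprint over it in replicate 2 lay 199 bp from one. A member as wide as that at Hexim2, 41 bp long and 118 bp downstream of the TSS of Spty2d1, held an ETS site, with q-values of 8.01e-76 and 5.17e-81.

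At many outside footprints the other library did have a peak. Of the replicate 1 members, 11648 (56.6%) lay at least in part under a replicate 2 peak, and the reverse was true of 11469 (33.5%) of the replicate 2 members. Peak footprints did so at 86.4% and 63.9%. A footprint of the other library lay over 43.4% and 25.3% of members and 52.4% and 36.4% of peak footprints. The other library's footprint was itself outside peaks for 3128 (15.2%) and 3123 (9.11%) of members, against 2.27% and 1.66% of peak footprints. It lay in a peak for 5791 (28.1%) and 5542 (16.2%) of members. With at least 50% of each footprint covered by the other, 2151 outside footprints were common to the libraries, 10.5% of the shorter and 6.28% of the longer list.

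The members that the other library lacked were of 2 kinds. No listed base of the other library lay under 1341 (6.52%) and 9786 (28.5%) members that also had no peak or footprint there, close to the 7.11% and 28.9% of peak footprints. In replicate 2 these had a median GC of 46.0% in 200 bp, and the peak footprints of that class 45.5%. A listed base without a peak or footprint lay under 4368 (21.2%) and 9651 (28.2%), where peak footprints had 4.30% and 5.46%. Members within 1 kb of a TSS overlapped a member of the other library at 21.5% and 15.1%, and members farther away at 9.01% and 4.79%. The median width was 10 bp and 11 bp where the other library had a footprint but no peak at the same bases, and 8 bp where it had neither peak nor footprint.

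**Figure D5:**
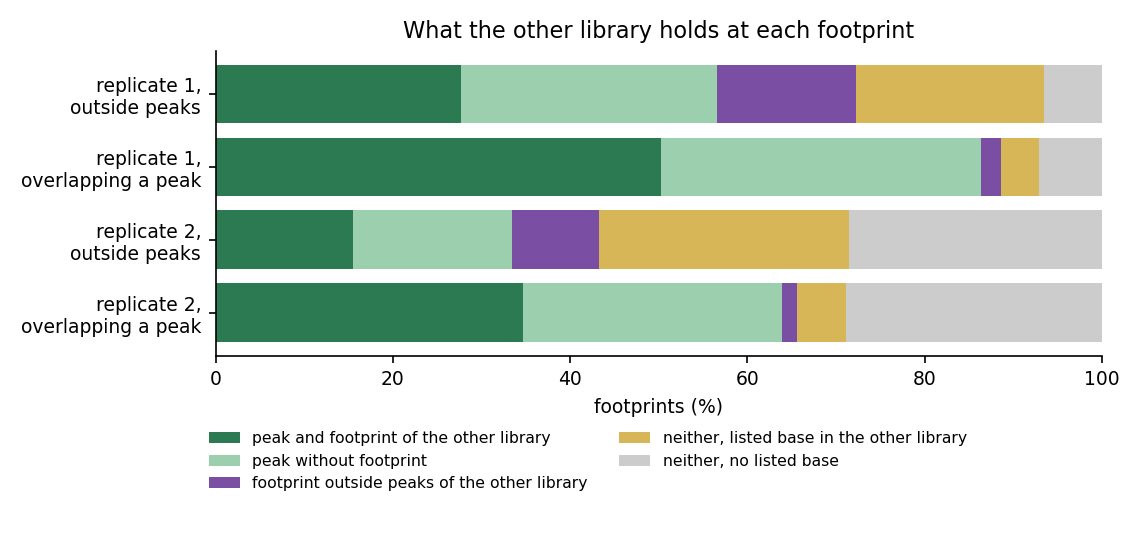
Percent of footprints (horizontal axis) by what the other library holds at the same bases, for outside footprints and for footprints that overlap a peak in each library; listed means a per-base q-value of at most 0.05. The class named as a footprint outside peaks of the other library holds footprints over a footprint, but not over a peak, of that library. The other library's footprint may itself reach into a peak. This class covers 15.6% and 9.84% of the outside footprints and 2.19% and 1.72% of the others.

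Most outside footprints stood alone. Joined where the gap was at most 50 bp, they formed 16181 and 26447 runs, and 62.5% and 60.2% of members were the single member of their run. Runs of at least 3 members numbered 778 and 1455. The largest held 10 members of replicate 1 over 302 bp at chr7:90060051-90060352, in intergenic sequence 69864 bp from Picalm, a clathrin assembly gene, and 8 of the 10 lay under a replicate 2 peak. The strongest of the nearest peaks there had a signal of 0.752, close to the median of 0.772 over the longer-list peaks of replicate 1. Runs of 7 lay at the TSS of Hnrnpd, an RNA-binding protein gene, where all 7 lay under a replicate 2 peak, and at Lsm1, a gene of mRNA decay, where 1 of 7 did. In replicate 2 the largest run held 8 members in an exon 1098 bp from the TSS of Crlf2, and a run of 7 lay in an exon 1439 bp from the TSS of Angptl6. None of the runs named here held a central 36-base sequence that occurs more than once.

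By gene, counted in the gene body with 10 kb on each side, the shared outside footprints were few at any gene. Fgfr2, a fibroblast growth factor receptor gene that the annotation extends over a window of 2981 kb, had 7 shared members, of 41 in replicate 1 and 50 in replicate 2. Ppp2r3d, a phosphatase subunit gene, had 7 in a window of 74.3 kb, of 19 and 30. Kcnn1 had 6, of 15 and 12, and the neighbours Abhd8 and Mrpl34, whose windows overlap, had 6 each. Among the 16 cortical genes, 11 in replicate 1 and 16 in replicate 2 had at least 1 member, 38 and 69 members in all, and the genes of other organs had 4 and 9 members at 1 and 4 of 10 genes. The share over all protein-coding genes was not counted and gene length was not taken into account. The sets also differ in promoter peaks, as given above, so no contrast between them is drawn. Tbr1, a factor of deep-layer neurons, had 10 and 3 members, and Cx3cr1, a microglial receptor gene, had 8 and 9. Neurod6, a factor of excitatory neurons, had 0 in replicate 1 and 8 in replicate 2.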

How the data were processed

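The authors deposited, for each DNase-seq library, 2 peak lists with a signal per peak, a footprint list and per-base false discovery rates (q-values, listed up to 0.05), on mm10 per the file headers and notes. Each footprint row of the deposited lists has the same score, 0.01, which was not used. Peaks and footprints were called in each library separately per the deposited notes. The tools, thresholds and signal scaling are details not given in the sources used here. Read totals were not used, and the number of calls is the only guide to depth, so no interval is given.

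From these, overlaps (minimum 1 bp), distances, locations, soft-masked bases, 36-base copies and motif sites were computed with numba 0.67.0, pandas 2.3.3 and numpy 2.4.6 under python 3.11.15, with helpers tested on simulated data, and figures in matplotlib 3.10.9. Locations take the centre base: promoter (within 1 kb of a protein-coding TSS), exon, intron, intergenic. Genes came from GENCODE M21 basic, sequence and tRNA genes from RefSeq GRCm38.p6. Chromosomes 1 to 19 were used. With 1 group of 2 libraries no test was run; over 2 pairs of values the smallest exact permutation p is 0.5. The members, motifs and gene lists were chosen with earlier results of these data known. Regions named are the 5 widest shared members, per library the 3 members under the strongest shorter-list peak of the other library, the 3 shared members farthest from peaks, the 3 longest runs per library, the 2 widest shared members with each of the 3 motifs densest against the genome, and the 5 genes with most shared members; the widest and farthest of each library and the tRNA genes were added after seeing the values. Some items that these rules name are not reported here. Sequence is printed only where the window touches no annotated UTR. Alternatives changed the gap, the peak lists, the chromosomes, the overlap, the TSS set, the masking measure, the motif window and the footprint width, and left out each library.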

Additional observations from a re-analysis of the deposited data

How the results depend on the processing

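The selection depended on which peaks counted (values are means of the 2 libraries). With only the shorter peak list, 27.9% of footprints were outside peaks, at a median gap of 728.8 bp and 19072 bp from a TSS, with 22.3% in promoters, 11.6% masked bases, a GC content of 50.8%, a −log10 q of 2.38 and CTCF sites at 124 times the genome density. The comparison with all footprints (27.6% in promoters, 15768 bp from a TSS, 52% GC) then runs the other way. With only the shorter-list peaks at or above their median signal these were 51.3%, 10096.5 bp, 26933 bp, 17.7%, 10.96%, 50%, 3.63 and 242. Members more than 100 bp from every peak were 1.25% of footprints, at a median gap of 136 bp and 421 bp from a TSS, with 61.6% in promoters, 10.0% masked bases, a GC content of 58.5% and CTCF at 84.2 times the genome, against 34.5 for all members. This CTCF mean joins 113 times in replicate 1 and 55.7 in replicate 2, and rests on few sites. Gaps of 100 to 199 bp held 8 and 6 CTCF sites, and gaps of 200 bp or more held 0 and 2. Against the TSS of all genes the median distance was 1201 bp, against 2664 bp. With X and Y included the masked share was 12.0331%; the share of members masked at every base was 8.53%; counting motif centres within 10 bp gave CTCF at 15.9 times the genome; and footprints of at least 10 bp were outside peaks at 6.47%. Leaving out each library gave ranges of 7.96% to 9.09% for the share outside peaks, 8 to 9 bp for width, 26 to 36 bp for the gap, 1060 to 4268 bp for the TSS distance, 42.0% to 49.7% for promoters, 11.93% to 11.98% for masked bases, 53.5% to 56.0% for GC, 33.5% to 56.6% for overlap with the other library's peaks, 25.3% to 43.4% with its footprints, 7.86 to 11.04 for −log10 q, and 30.2 to 38.7 for CTCF. No paired analysis was possible because there is no second condition to pair across, and members set against peak footprints give only 2 pairs of values. How many calls each library yields limits every overlap between them.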
